A study of Mus musculus with 12 samples.

Results

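Ribosomal protein pseudogenes were followed mouse by mouse in liver RNA from wild-type and Rev-erbα-/- animals. They were taken as all gene symbols of the count files that begin with Rpl or Rps and end in -ps with or without a number, and that had 10 or more reads in at least 3 of the 12 libraries. Of 222 such symbols, 63 had no read in any library and 41 met the read minimum. These 41 belong to 14532 symbols that met the same minimum and to 38926 symbols counted in all. Their names assign them to 29 parent genes. Among these, Rpl7l1 was set apart as a like-named gene of other function, and is left out of the cytosolic ribosomal protein genes below. The pseudogenes just inside the minimum had a third-highest count of 12 (Rps15a-ps6), 17 (Rpsa-ps4) and 19 reads (Rpl7l1-ps1), and those just outside it had 9 (Rpl34-ps1), 8 (Rpl19-ps1) and 7 reads (Rpl21-ps8).

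Ribosomal protein genes encode the protein subunits of the cytosolic ribosome and are transcribed at a high level in every cell. Their messenger RNAs have been reverse transcribed and inserted back into the genome many times, which leaves processed pseudogenes: copies without introns, often without a promoter of their own. Because such a copy can be nearly identical to the spliced parent transcript, a short read may match both, and a read counted on one of them is not proof of transcription from that place.

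The 12 livers came from mice of 12 weeks on a 129Ola/C57BL6 background, and the methods describe males from heterozygous breeding pairs on a mixed 129 and C57BL6 background. Wild-type mice, with an intact Nr1d1 gene for the clock repressor REV-ERBα, and Rev-erbα-/- mice were killed at zeitgeber time 8 (ZT8, hours after lights on) or at ZT20, with 3 animals in each of the 4 groups. No further treatment was given, and the labels do not say which share of each strain's genome a given mouse carried. The study compared the genotypes at both times to find transcripts that changed at ZT8 and not at ZT20.

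The libraries held between 17641809 and 26060192 reads on genes, so that 3 reads, taken here as the floor of detection, correspond to 0.115 to 0.170 CPM, counts per 1000000 reads. Levels are given below as reads or as CPM scaled by the trimmed mean of M values (TMM). Alignments set aside because the read matched several places numbered 1.76 to 3.28 per counted read in the wild-type livers and 2.29 to 2.72 in the Rev-erbα-/- livers at ZT8, against 1.56 to 1.67 and 1.24 to 1.56 at ZT20. Reads on Nr1d1 remained in Rev-erbα-/- liver (63.0 to 80.6 CPM at ZT8, against 75.3 to 128.7 CPM in wild-type), and since the count covers the whole gene it does not check the genotype labels. Arntl, a gene that REV-ERBα represses, was at 0.448 to 0.796 CPM in wild-type and 22.7 to 25.7 CPM in Rev-erbα-/- liver at ZT8, and at 43.0 to 45.2 and 41.1 to 45.1 CPM at ZT20, where it does not separate the genotypes. Wdr72, picked because it differed between the genotypes of these same libraries and so no independent check, was at 3.00 to 5.77 CPM in wild-type and 0 to 0.104 CPM in Rev-erbα-/- liver at ZT8, and at 5.17 to 6.14 and 0 to 0.117 CPM at ZT20.

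All 6 hepatocyte markers were above 10 reads in every mouse, and their summed level was 49704 to 71600 CPM at ZT8 and 93792 to 104049 CPM at ZT20 in wild-type liver. In Rev-erbα-/- liver the sums were 59020 to 85002 and 82684 to 91236 CPM, which overlap between the times. The genotypes overlapped at ZT8 but not at ZT20, where the sums were lower in Rev-erbα-/- liver. The 4 cholangiocyte markers summed to 4.83 to 7.44 CPM in wild-type and 9.97 to 15.5 CPM in Rev-erbα-/- liver at ZT8, and to 11.9 to 12.3 and 13.5 to 19.2 CPM at ZT20. The 4 stellate cell markers summed to 109 to 127 and 93.4 to 105 CPM at ZT8, and to 91.6 to 112 and 104 to 126 CPM at ZT20. Pancreas markers, of which 2 of 3 were at 0 in every mouse, summed to 25.9 to 28.6 and 43.6 to 59.7 CPM at ZT8, and to 18.0 to 30.1 and 29.3 to 40.3 CPM at ZT20. Markers of endothelial cells, macrophages, lymphocytes and erythroid cells overlapped between the genotypes at both times. The part of these differences in the results below was not tested.

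Sequences are shown first for the 2 families that hold the on-off pseudogenes described below. All coordinates are GRCm38 and all sequences come from GENCODE M21 transcripts, with positions counted from 1 at the A of the parent's start codon. The first set covers coding positions 390 to 449 of Rps13 (chr7, minus strand, in exons at chr7:116332379-116332411 and chr7:116331557-116331583) and the same stretch of its copies Rps13-ps1 (chr8:87048109-87048168, plus strand) and Rps13-ps2 (chr7:88530450-88530509, minus strand). Capitals mark the bases at which Rps13-ps1 differs from the parent.
Rps13: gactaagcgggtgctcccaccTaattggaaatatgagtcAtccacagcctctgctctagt
Rps13-ps1: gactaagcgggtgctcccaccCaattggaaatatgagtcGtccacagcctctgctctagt
Rps13-ps2: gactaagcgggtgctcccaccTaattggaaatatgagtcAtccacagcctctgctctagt
Rps13-ps1 differed from the Rps13 coding sequence by the substitutions T411C and A429G over 456 aligned bases, both within the stretch shown. Rps13-ps2 was identical to the parent over 453 aligned bases. The second set covers coding positions 1 to 90 of Rps15a (chr7:118115152-118115241, minus strand) and of Rps15a-ps8 (chr4:53791367-53791456, minus strand), where 12 of 30 substitutions lie.
Rps15a: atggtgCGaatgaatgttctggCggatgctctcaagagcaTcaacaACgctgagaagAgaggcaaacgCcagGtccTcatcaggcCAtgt
Rps15a-ps8: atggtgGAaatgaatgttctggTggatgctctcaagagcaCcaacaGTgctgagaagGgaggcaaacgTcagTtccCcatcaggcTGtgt
Coding positions 184 to 273 hold a single substitution between them, C219A (Rps15a-ps8 at chr4:53791184-53791273, Rps15a at chr7:118114785-118114814 and chr7:118109959-118110018).
Rps15a: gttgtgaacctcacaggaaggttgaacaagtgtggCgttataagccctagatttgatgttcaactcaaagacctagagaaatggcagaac
Rps15a-ps8: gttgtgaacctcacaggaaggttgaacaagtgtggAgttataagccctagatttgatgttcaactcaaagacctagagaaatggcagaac
Over 387 aligned bases, Rps15a-ps8 was 92.2% identical to the coding sequence of Rps15a. Cut into windows of 75 bases, the sequenced length, 0 of 379 windows of Rps13-ps2 and 84 of 464 windows of Rps13-ps1 were found in no other annotated transcript, whereas all 313 windows of Rps15a-ps8 were.

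A pseudogene was called on-off when at least 2 mice had 3 reads or fewer (off) and at least 3 mice had 10 or more (on). Rps13-ps1, Rps13-ps2 and Rps15a-ps8 met this rule, which is 7.32% of the 41. Among all 14532 symbols with the same read minimum 2.6% met it, among 98 other pseudogenes named with -ps, with or without a number, 10.2%, and among 84 cytosolic ribosomal protein genes 1.19%. For each of the 3 pseudogenes, both time points and both genotypes contained on as well as off mice.

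Rps13-ps1 lies on chromosome 8 (chr8:87047689-87048226, plus strand) and is a copy of Rps13, the gene of a small-subunit protein. It had 240, 50 and 0 reads in the 3 wild-type livers at ZT8, and 386, 307 and 395 reads in the 3 Rev-erbα-/- livers at that time. At ZT20, the order of the genotypes was the opposite, with 487, 523 and 472 reads in wild-type and 1, 0 and 0 reads in Rev-erbα-/- liver. Thus 8 mice were on and 4 were off, and wild-type livers at ZT8 were the only group that held both kinds. The mean levels were 4.01 ± 4.95 CPM in wild-type and 18.8 ± 1.56 CPM in Rev-erbα-/- at ZT8, and 22.3 ± 1.05 and 0.0140 ± 0.0242 CPM at ZT20 (SD, n = 3).

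Rps13-ps2, the copy on chromosome 7 (chr7:88530446-88530898, minus strand), showed the complementary pattern. It had 278, 378 and 458 reads in wild-type and 0, 0 and 1 reads in Rev-erbα-/- liver at ZT8, and 0, 0 and 0 reads in wild-type and 587, 691 and 518 reads in Rev-erbα-/- liver at ZT20. Here 6 mice were on and 6 were off, and no group was mixed. Its mean levels were 17.7 ± 6.19 and 0.0163 ± 0.0283 CPM at ZT8 in wild-type and Rev-erbα-/- liver, and 24.9 ± 1.95 CPM in Rev-erbα-/- liver at ZT20 (SD, n = 3).

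Every mouse had reads on at least one of the Rps13 copies, and only wild-type replicates 1 and 2 at ZT8 had more than 3 reads on both. Rps13-ps1 took 46.3% of the reads on the pair in wild-type replicate 1 at ZT8 (95% Wilson interval 42.1 to 50.6, of 518 reads), 11.7% in replicate 2 (8.97 to 15.1, of 428 reads) and 0% in replicate 3 (0 of 458 reads, with an upper Wilson limit of 0.832%, or 0.655% by the floor of 3 reads). In the other 9 mice its share was at least 99.7% (all mice of Rev-erbα-/- at ZT8 and wild-type at ZT20) or at most 0.170% (Rev-erbα-/- at ZT20). These intervals cover counting error only. The summed level of the pair stayed between 17.1 and 26.9 CPM, a 1.58-fold range over the 12 mice, and was 21.7 ± 1.38, 18.8 ± 1.57, 22.3 ± 1.05 and 24.9 ± 1.95 CPM in wild-type at ZT8, Rev-erbα-/- at ZT8, wild-type at ZT20 and Rev-erbα-/- at ZT20 (SD, n = 3). The pair was added up after the single values had been seen, and the sum was not tested. The parent Rps13 itself had only 8 to 35 reads per mouse (0.392 to 1.78 CPM), and the ranges of its 4 groups overlapped.

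Rps15a-ps8 lies on chromosome 4 (chr4:53791070-53791456, minus strand) and is a copy of Rps15a, which encodes another small-subunit protein. It had 183, 46 and 1 reads in wild-type and 273, 273 and 265 reads in Rev-erbα-/- liver at ZT8. At ZT20 it had 273, 372 and 315 reads in wild-type and 0, 0 and 1 reads in Rev-erbα-/- liver. The same 8 mice were on and the same 4 were off as for Rps13-ps1, including the order of the 3 wild-type mice at ZT8. Across the 12 mice, log2(CPM + 0.1) of Rps15a-ps8 and Rps13-ps1 had a Pearson correlation of 0.996 and a Spearman correlation of 0.84, given as a description because both were chosen for an on-off pattern in the same libraries.

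Unlike Rps13, the parent Rps15a carried many reads, and these moved in the opposite direction to its pseudogene. Rps15a had 399, 439 and 500 reads in wild-type and 171, 195 and 182 reads in Rev-erbα-/- liver at ZT8, and 181, 249 and 230 reads in wild-type and 494, 572 and 454 reads in Rev-erbα-/- liver at ZT20. At each time, the group with more reads on Rps15a-ps8 had the lower level of Rps15a, and the 2 genotypes did not overlap. In the 6 mice of Rev-erbα-/- at ZT8 and wild-type at ZT20, Rps15a-ps8 took between 57.8% and 61.5% of the reads on the parent and pseudogene together. In wild-type liver at ZT8 its share was 31.4% in replicate 1 (95% Wilson interval 27.8 to 35.3, of 582 reads), 9.48% in replicate 2 (7.19 to 12.4, of 485 reads) and 0.200% in replicate 3 (0.0352 to 1.12, of 501 reads). The summed level of Rps15a and Rps15a-ps8 lay between 20.2 and 27.5 CPM in all 12 mice, a 1.36-fold range (not tested, for the same reason).

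**Figure D1:**
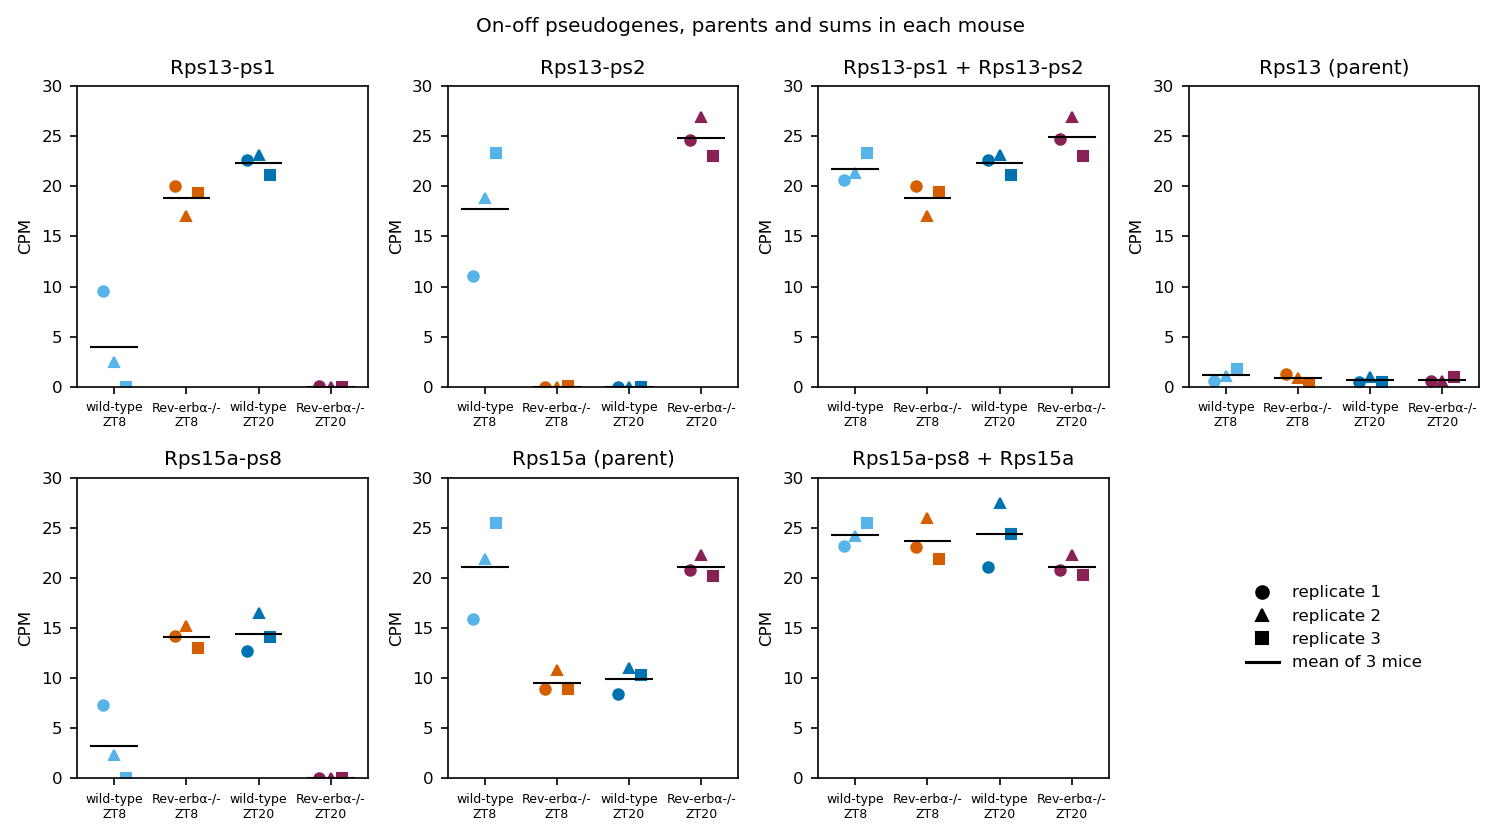
Level in CPM (vertical axis, 0 to 30 in each panel) of Rps13-ps1, Rps13-ps2, their sum, the parent Rps13, Rps15a-ps8, the parent Rps15a and the sum of the last pair, in the 4 groups. Each point is 1 mouse, with the marker shape giving the replicate number, and the bar is the mean of 3 mice. The single copies switch between near 0 and 12.7 to 26.9 CPM outside the wild-type ZT8 group, while the sums stay between 17.1 and 27.5 CPM.

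The tests followed this crossed pattern. In edgeR's quasi-likelihood test with Benjamini-Hochberg adjustment over 14488 genes, 1 of the 41 pseudogenes passed an adjusted p of 0.05 between genotypes at ZT8, where 8.45% of all tested genes passed. It was Rps13-ps2, lower in Rev-erbα-/- liver (adjusted p = 1.64e-05). At ZT20, 3 of 41 passed against a background of 3.63%: Rps13-ps2 was higher (adjusted p = 9.74e-06, edgeR), and Rps13-ps1 (adjusted p = 0.0135) and Rps15a-ps8 (adjusted p = 0.0123) were lower in Rev-erbα-/- liver. The last 2 calls were lost when any of the 3 Rev-erbα-/- mice at ZT20 was left out, with adjusted p up to 0.0902 for Rps13-ps1 and 0.0744 for Rps15a-ps8.

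The genotype effect differed between the times for the same 3 pseudogenes, against 5.88% of all genes (edgeR interaction, adjusted p = 1.07e-06 for Rps13-ps2, 0.00705 for Rps13-ps1 and 0.00624 for Rps15a-ps8). At ZT8, Rps13-ps1 had 4.22 times (95% counting interval by the exact binomial method 3.70 to 4.82) and Rps15a-ps8 3.97 times (3.42 to 4.61) the level in Rev-erbα-/- liver that they had in wild-type. Neither difference passed (adjusted p = 0.133 and 0.121, edgeR), and the wild-type mice spanned from off to on. The ratios rest on wild-type replicate 1, without which they were 14.99 (11.3 to 20.3) for Rps13-ps1 and 11.9 (8.86 to 16.3) for Rps15a-ps8, and without replicate 2 or 3 they were 3.52 and 2.94, and 3.42 and 2.78. The counting intervals do not cover this spread between mice. Leaving out wild-type replicate 1 at ZT8 raised the number of pseudogenes called at that time to 3, with both among them, and leaving out replicate 3 raised it to 2, with Rps15a-ps8. No pseudogene passed for the genotype effect averaged over both times, where 6.34% of all genes did. At an unadjusted p under 0.05 there were 7, and DESeq2 called 2, Rps13-ps1 and Rps15a-ps8.

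Because off mice had 0 or 1 read, the fitted fold changes of these 3 pseudogenes depend on the count added by the model and the ratios of group totals are given in their place. With a floor of 3 reads over the 3 libraries of the group at 0, Rps13-ps2 was at least 553-fold higher at ZT20 in the Rev-erbα-/- group than in the wild-type group, and at least 380-fold lower in wild-type liver at ZT20 than at ZT8. Rps13-ps1 had 1482 reads in wild-type and 1 read in Rev-erbα-/- liver at ZT20, a ratio of 1605 (95% counting interval 288 to 63442). Rps15a-ps8 had 960 and 1 reads there, a ratio of 1040 (186 to 41111).

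The parent Rps15a passed in every comparison of 2 groups. Its log2 fold change between Rev-erbα-/- and wild-type liver was -1.14 ± 0.15 at ZT8 (SE, adjusted p = 0.000422, edgeR) and 1.09 ± 0.15 at ZT20 (adjusted p = 0.000779), with an interaction of -2.23 ± 0.22 (adjusted p = 2.48e-05). From ZT8 to ZT20 it was -1.08 ± 0.15 in the wild-type animals and 1.14 ± 0.15 in the Rev-erbα-/- animals. Rps13, the other parent, passed in none of them.

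The other copies of Rps15a had reads in every mouse. Rps15a-ps5 had 161 to 262 reads and Rps15a-ps7 506 to 697 reads per mouse. The rarest of all 41 pseudogenes, Rps15a-ps6, had 13, 9 and 7 reads in wild-type and 5, 10 and 12 reads in Rev-erbα-/- liver at ZT8, and 13, 12 and 12 reads in wild-type and 6, 6 and 4 reads in Rev-erbα-/- liver at ZT20. Its log2 fold change between genotypes at ZT20 was -1.30 ± 0.40, and did not pass (adjusted p = 0.0976, edgeR).

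The other 38 pseudogenes had no on-off pattern. The ratio of the highest to the lowest mouse was below 2 for 29 of them, with a median of 1.54 and a range of 1.18 to 3.40, the largest being that of Rps15a-ps6. In 34 of the 38, every mouse had at least 10 reads, and the widest gap between neighbouring mice on the log2(CPM + 0.1) scale was 0.46 (Rpl36-ps2), against 4.19, 6.23 and 3.99 for Rps13-ps1, Rps13-ps2 and Rps15a-ps8. These last gaps follow in part from the on-off rule, which used the same reads. Their size also depends on the 0.1 CPM added. Rpl36-ps2, a copy of a large-subunit gene, was also the most variable of these 38 within 1 group, with 18, 14 and 7 reads in Rev-erbα-/- liver at ZT8, a 2.73-fold range. The next were Rpl7l1-ps1 (8, 19 and 12 reads, 2.54-fold) and Rps15a-ps6 (2.26-fold) in the same group, all with few reads. In wild-type liver at ZT8 the ranges of Rps13-ps1 and Rps15a-ps8 were at least 62.6-fold and 47.7-fold, with the lowest mouse set to the floor of 3 reads per library.

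**Figure D2:**
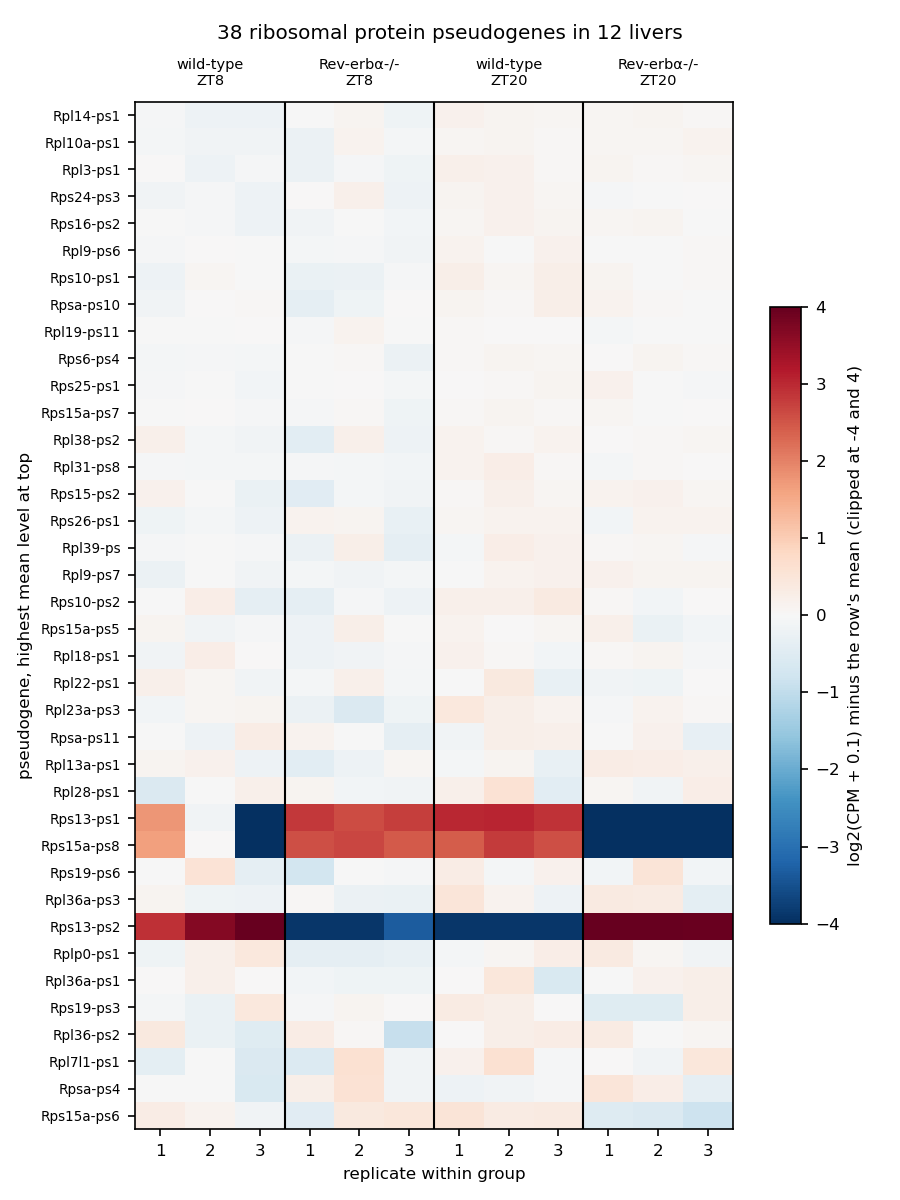
log2(CPM + 0.1) of all but 3 of the 41 pseudogenes (rows, highest mean level at the top) in each of the 12 livers (columns, 3 per group), as the difference from the row's mean over the 12 mice, clipped at -4 and 4. Rps13-ps1 and Rps15a-ps8 share the same on and off livers, Rps13-ps2 is on where they are off, and the other rows stay near 0.

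Mean levels of the 41 pseudogenes ran from 0.422 to 117 CPM, with a median of 10.7 CPM. The highest was Rpl14-ps1, a copy of a large-subunit gene, in an intron of Trpm4 (chr7:45324965-45325617), on the opposite strand. Its levels were 112, 102 and 102 CPM in wild-type and 115, 125 and 103 CPM in Rev-erbα-/- liver at ZT8, and 130, 125 and 122 CPM and 124, 125 and 121 CPM at ZT20. Rpl10a-ps1 (54.1 to 69.9 CPM over the 12 mice), Rpl3-ps1 (49.0 to 66.5 CPM), Rps24-ps3 (44.4 to 59.2 CPM) and Rps16-ps2 (44.2 to 56.5 CPM) followed. The lowest were Rps15a-ps6, Rpsa-ps4 with 7 to 21 reads per mouse and Rpl7l1-ps1 with 8 to 24 reads. Among the parents of these pseudogenes, Rpl14 was at 36.3 to 50.6 CPM, Rpl10a at 7.24 to 14.9 CPM, Rpl3 at 20.7 to 28.7 CPM, Rps24 at 37.2 to 52.1 CPM, Rpsa at 34.0 to 46.6 CPM and Rpl7l1 at 54.4 to 78.4 CPM over the 12 mice. Together the 41 made up 776 ± 19.7 CPM in wild-type and 779 ± 48.1 CPM in Rev-erbα-/- liver at ZT8, and 886 ± 9.47 and 837 ± 6.21 CPM at ZT20 (SD, n = 3). The 29 parents summed to 798 ± 28.7, 784 ± 15.6, 864 ± 12.5 and 858 ± 7.69 CPM in the same order, so that pseudogenes and parents held similar numbers of counted reads. Only unique alignments were counted, so both sums leave out reads that matched several places.

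The reads on each pseudogene were also set beside those on its own parent. In 16 of 41 cases the pseudogene held over 50% of the pseudogene and parent reads in every mouse, in 16 it held under 50% in every mouse, and 9 lay on both sides. Per kilobase of transcript, the mean level of the pseudogene was above that of the parent for 23 and below it for 18. The extremes were Rps16-ps2, at 115 CPM per kb against 0.729 for Rps16, and Rplp0-ps1, at 1.13 CPM per kb against 68.3 for Rplp0. Rps16-ps2 had 1258, 990 and 870 reads in wild-type liver at ZT8 where Rps16, a small-subunit gene, had 16, 16 and 23. Rpl38-ps2, with 393 to 789 reads per mouse, stood in the same relation to Rpl38, with 4 to 18 reads. The parent Rpl23a, with 0 to 9 reads, was too low to be tested, while Rpl23a-ps3 had 48 to 117 reads.

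**Figure D3:**
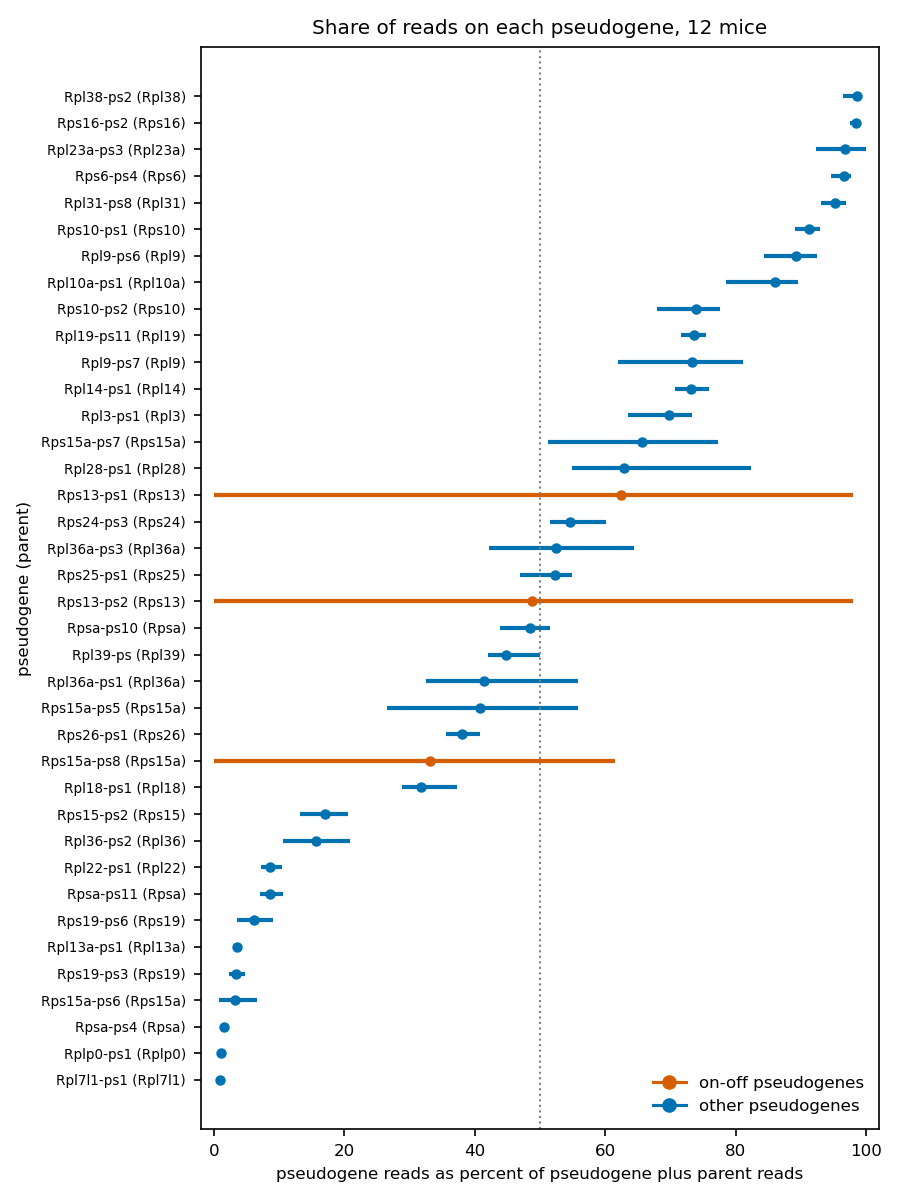
Reads on all but 3 of the 41 pseudogenes, each as a percent of the reads on the pseudogene and its parent (horizontal axis), with the parent in brackets. The line runs from the lowest to the highest of the 12 mice and the point is their mean, orange for the 3 on-off pseudogenes and blue for the others. Among the blue lines the shares reach from 0.677% (lowest mouse, Rpl7l1-ps1) to 100% (highest mouse, Rpl23a-ps3), and the on-off pseudogenes have the widest lines, from 0% to 98.0% for both Rps13 copies and to 61.5% for Rps15a-ps8.

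Among the pseudogenes that met the read minimum, sequence identity went together with the level. Their choice did not use identity, but it did use the level, and symbols below the minimum were not aligned. For 40 pseudogenes at least 100 bases could be aligned to the parent's coding sequence (Rpl18-ps1 was left out, with 64). Identity ran from 87.5% (Rpl36a-ps3) to 100%, with a median of 98.9%. The 17 with at least 99% identity had a median level of 27.7 CPM (2.81 to 63.2), and the 23 below it a median of 3.55 CPM (0.422 to 117). The Spearman correlation between identity and the mean CPM per kb was 0.61 over these 40 pseudogenes, which share libraries and in part a parent, and it is given as a description.

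The 7 pseudogenes Rpl10a-ps1, Rpl28-ps1, Rpl31-ps8, Rpl38-ps2, Rps13-ps2, Rps16-ps2 and Rps6-ps4 were identical to the parent's coding sequence and had no window of 75 bases that was absent from every other annotated transcript. Their mean levels were 2.81 to 63.2 CPM. For them the counts do not tell the transcript of the pseudogene from that of the parent. A read inside a single exon of the parent matches both places, and only unique alignments were counted. A read across an exon junction of the parent, as in 270 of 1035 windows of Rps16, can also match the copy without a gap. How many counted reads were of this kind was not tested. By contrast, Rpl7l1-ps1 and Rps15a-ps8 shared no exact window with any other transcript, and Rps15a-ps8 had a mean level of 7.94 CPM. The windows were compared without allowing a mismatch. Coding positions 184 to 273 of Rps15a-ps8 differ from Rps15a only by C219A. Whether reads of Rps15a were counted there was not tested.

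**Figure D4:**
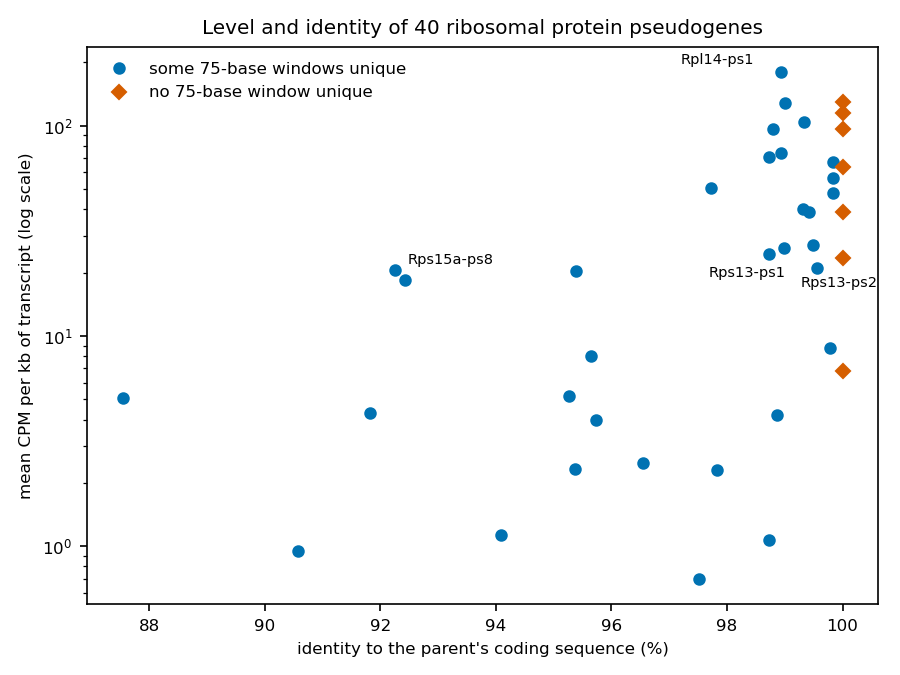
Mean CPM per kb of transcript over the 12 mice (vertical axis, log scale) against the identity of 40 pseudogenes to the coding sequence of their parent (horizontal axis, percent). Orange diamonds are the 7 pseudogenes without a unique window of 75 bases, and blue circles the others. Levels are higher towards 100% identity, and Rps15a-ps8 lies at 92.2%.

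None of the 38 remaining pseudogenes passed between genotypes at ZT8, at ZT20, in the interaction or in the averaged effect by edgeR, nor by DESeq2. At an unadjusted p under 0.05, the 41 pseudogenes gave 3, 5, 5 and 7 in these comparisons, the on-off pseudogenes included. The log2 fold changes of the 38 reached from -0.55 to 0.48 at ZT8 and from -1.30 to 0.35 at ZT20. The median log2 fold change of the 41 pseudogenes was -0.04 at ZT8 and -0.07 at ZT20, against 0.00177 and -0.000676 over all tested genes. At ZT20, the 3 Rev-erbα-/- mice lay above the 3 wild-type mice for 2 pseudogenes (Rpl13a-ps1 and Rps13-ps2) and below them for 6 (Rpl19-ps11, Rps10-ps2, Rps13-ps1, Rps15a-ps6, Rps15a-ps8 and Rps24-ps3), where 11.2% and 11.3% of all tested genes did so. At ZT8 these numbers were 2 above (Rps13-ps1 and Rps15a-ps8, background 13.2%) and 5 below (Rpl23a-ps3, Rpl36a-ps1, Rpl9-ps6, Rplp0-ps1 and Rps13-ps2, background 12.3%).

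Between the times of day the shifts were larger and mostly upward. In wild-type liver, 5 of 41 pseudogenes passed from ZT8 to ZT20, against 27.7% of all genes, and in Rev-erbα-/- liver 5 of 41 against 17.5% (edgeR). The median log2 fold change of the 41 was 0.16 for the wild-type animals and 0.12 for the Rev-erbα-/- animals, with positive values for 34 and 32 of them, and the medians over all tested genes were -0.000206 and 0.00635. The values of 15 pseudogenes were higher in all 3 wild-type mice at ZT20 than in all 3 at ZT8 (background 21.5%), and those of 1, Rps13-ps2, were lower (20.9%). For the Rev-erbα-/- animals 11 were higher (background 17.5%) and 3 lower (17.6%). Multiple alignments per counted read were fewer at ZT20 in both genotypes, and the summed hepatocyte markers were higher at ZT20 without overlap in wild-type but not in Rev-erbα-/- liver, as given above. Their part in these shifts was not tested.

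Of the pseudogenes without an on-off pattern that passed, all rose, by 0.23 to 0.35 on the log2 scale. Rpl14-ps1 went from 106 ± 5.64 to 126 ± 4.04 CPM in wild-type liver (SD, n = 3), a log2 fold change of 0.25 ± 0.08 (SE, adjusted p = 0.0201, edgeR). Its parent Rpl14 rose alongside, by 0.28 ± 0.07 (adjusted p = 0.00727). Rps24-ps3 rose from 47.0 ± 2.43 to 55.7 ± 2.33 CPM (0.25 ± 0.09, adjusted p = 0.0497) and its parent Rps24 by 0.27 ± 0.07 (adjusted p = 0.0135). Rpl31-ps8 rose from 22.9 ± 0.469 to 26.9 ± 2.23 CPM (0.23 ± 0.08, adjusted p = 0.0379), while its parent Rpl31 was at 1.39 ± 0.477 and 1.02 ± 0.199 CPM (-0.42 ± 0.29, adjusted p = 0.326). In Rev-erbα-/- liver, Rpl3-ps1 rose from 51.8 ± 3.16 to 61.0 ± 1.09 CPM (0.24 ± 0.08, adjusted p = 0.0418), and its parent Rpl3 did not pass (0.06 ± 0.11, adjusted p = 0.749).

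The same comparison called Rps15-ps2, which went from 18.9 ± 2.50 to 24.2 ± 0.856 CPM in Rev-erbα-/- liver (0.35 ± 0.11, adjusted p = 0.0414, edgeR). Its parent Rps15 did not pass there (0.12 ± 0.07, adjusted p = 0.317). The mice of the 2 times did not overlap for Rpl14-ps1, Rps24-ps3 and Rpl31-ps8 in wild-type, nor for Rpl3-ps1 and Rps15-ps2 in Rev-erbα-/- liver. Of 18 other settings, however, the call held in 14 for Rpl14-ps1, 5 for Rps24-ps3, 8 for Rpl31-ps8, 9 for Rpl3-ps1 and 8 for Rps15-ps2. Leaving out wild-type replicate 2 at ZT20, for example, ended the calls of Rpl14-ps1, Rps24-ps3 and Rpl31-ps8, with 1 pseudogene (Rps13-ps2) still called in wild-type. Leaving out any Rev-erbα-/- mouse at ZT20 ended those of Rpl3-ps1 and Rps15-ps2, with 3 still called.

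The on-off pseudogenes completed these lists. Rps13-ps1 was higher (adjusted p = 0.0479) and Rps13-ps2 lower (adjusted p = 2.38e-06) at ZT20 than at ZT8 in wild-type liver by edgeR, and the former call held in only 4 of 18 other settings. In Rev-erbα-/- liver Rps13-ps1 and Rps15a-ps8 were lower (adjusted p = 0.00517 and 0.00400) and Rps13-ps2 was higher (adjusted p = 6.29e-06) at ZT20.

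**Figure D5:**
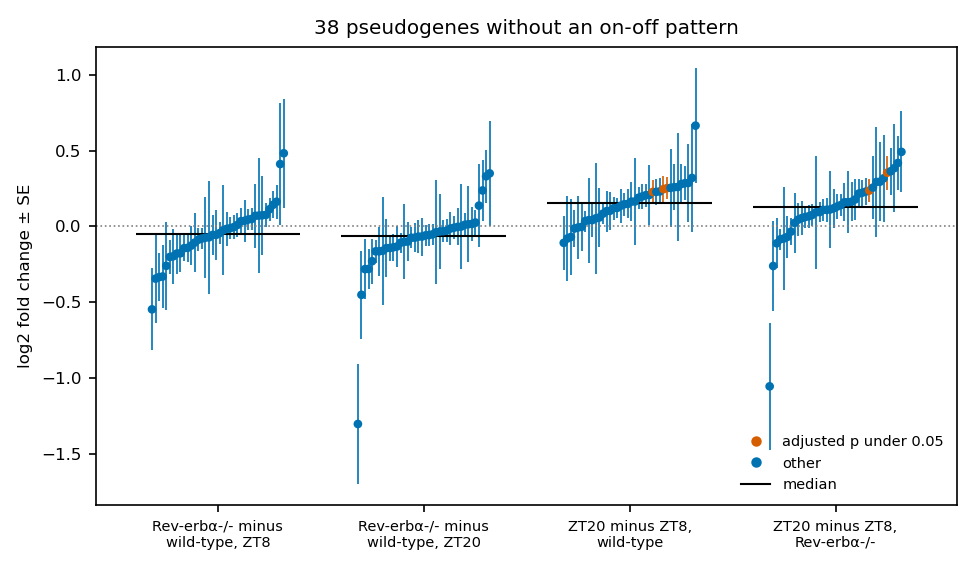
log2 fold change ± SE (vertical axis) of the 38 pseudogenes without an on-off pattern in the 4 comparisons, from edgeR, sorted within each. Orange points passed an adjusted p of 0.05, blue points did not, and the black line is the median of the 38. None is orange between genotypes, and 3 are orange between the times for wild-type and 2 for Rev-erbα-/- animals.

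Of the 84 cytosolic ribosomal protein genes tested, 1 passed between genotypes at ZT8 (Rps15a, lower; 8.45% of all tested genes passed), 6 at ZT20 (5 higher, 1 lower; 3.63%), 5 in the interaction (5.88%) and 4 for the averaged effect (3 higher, 1 lower; 6.34%), where no pseudogene did. Their median log2 fold changes between genotypes were -0.02 and -0.04. Rps3a1, Rps3a2 and Rps3a3, which share a family name, were among those called at ZT20, in the interaction and for the averaged effect. These counts are therefore not of independent genes. From ZT8 to ZT20, 13 of the 84 passed among wild-type animals (8 higher, 5 lower; 27.7% of all tested genes) and 7 among Rev-erbα-/- animals (6 higher, 1 lower; 17.5%). The 13 also include Rps3a1, Rps3a2 and Rps3a3. Among the 28 parents tested, Rpl13a, a large-subunit gene, was the only one besides Rps15a to pass between genotypes. The levels of Rpl13a were 88.0 ± 5.97 and 78.1 ± 2.35 CPM in wild-type and Rev-erbα-/- liver at ZT8, and 81.5 ± 2.99 and 101 ± 1.31 CPM at ZT20 (SD, n = 3; log2 fold change at ZT20 0.32 ± 0.07, adjusted p = 0.0126, edgeR; interaction -0.49 ± 0.09, adjusted p = 0.00522). Rpl13a-ps1 had 45 to 97 reads per mouse and did not pass.

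By GENCODE M21, the 41 pseudogenes lie on 16 chromosomes and are 151 to 1210 bases long. It lists 38 as processed pseudogenes, Rps26-ps1 as a transcribed processed pseudogene, and Rpl9-ps6 and Rpl36a-ps1 as protein coding. The intron of another gene contains 14 of them, 5 on the same strand as that gene and 9 on the opposite strand, and Rpl19-ps11 overlaps an exon of Gm27288. The counting did not use strand, so that reads of a pseudogene and of such a host transcript cannot be told apart. None of the 3 on-off pseudogenes lies within another gene. Their parents are neighbours on chromosome 7, with Rps15a (chr7:118104372-118116188) 1.77 Mb beyond Rps13 (chr7:116331505-116334195), and Rps13-ps2 lies 27.8 Mb before Rps13 on that chromosome.

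Genes most like the on-off pseudogenes were sought by the Pearson correlation of log2(CPM + 0.1) over the 12 mice. For Rps13-ps1 these were Cebpe (0.97; chr14:54710360-54712174), Nuggc (0.97; chr14:65598546-65648531) and the major urinary protein pseudogene Mup-ps4 (0.96; chr4:60437362-60440064), and the same 3 led for Rps15a-ps8 (0.98, 0.97 and 0.97). Cebpe, a myeloid transcription factor, had 95, 35 and 3 reads in wild-type and 51, 56 and 70 reads in Rev-erbα-/- liver at ZT8, and 89, 106 and 162 reads and 0, 0 and 0 reads at ZT20. It was the only symbol besides the pair with the identical on and off calls in all 12 mice. For Rps13-ps2 the most similar genes were Cadps2 (0.96; chr6:23262773-23839421), the parent gene Rps15a (0.96) and Btrc (0.93; chr19:45363734-45530013), and no other symbol had the identical calls. Cadps2 had 404 to 738 reads and Btrc 277 to 490 reads per mouse. Neither they nor Rps15a were off in any mouse.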

How the data were processed

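The deposited count tables give whole reads per gene symbol for 12 liver libraries. The authors sequenced poly(A) RNA for up to 75 bases, mapped reads to mm10 with TopHat, kept unique alignments and counted those of quality 10 or more per gene name with HTSeq-count, in union mode and ignoring strand. Replicates were not pooled. The 5 summary lines were left out of library sizes. The pseudogenes, gene lists and tests were chosen with earlier results of these data known. All 12 libraries entered one edgeR 4.0.16 quasi-likelihood fit (R 4.3.3; filterByExpr, TMM, robust), which tested 14488 genes in 6 contrasts; it was tested on simulated data. DESeq2 1.42.0, other scalings and filters, a replicate block and leaving out each mouse were alternatives. Correlations used a pseudocount of 0.1 CPM. The text names every on-off pseudogene, every pseudogene called, the 5 highest and 3 lowest, each with its parent, and the 3 most similar genes of each on-off pseudogene. Arntl, the sum of the Rps13 copies, the parent-pseudogene sum and the least similar genes were chosen after values were seen. Sequences and positions come from GENCODE M21 (GRCm38, the same build), aligned with Biopython 1.88. Replicates are separate mice; groups are the genotype and time of the labels. The values of 3 pseudogenes are not reported here on their own, and these have no row in the plots that name each pseudogene.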

Additional observations from a re-analysis of the deposited data

Results flagged for a closer look

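The genotype effect differed between ZT8 and ZT20 for 3 of the 41 pseudogenes and 2 of their parents, by the interaction term of edgeR's quasi-likelihood fit. The adjusted p was 1.07e-06 for Rps13-ps2 (lower in Rev-erbα-/- liver at ZT8, higher at ZT20), 0.00705 for Rps13-ps1 and 0.00624 for Rps15a-ps8 (lower at ZT20), 2.48e-05 for the parent Rps15a (lower at ZT8, higher at ZT20) and 0.00522 for the parent Rpl13a. The call held in all 17 alternative settings for each of the 5. Beyond the chi-square between replicates given above, groups of 3 mice were not searched for single outlying samples.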

How the results depend on the processing

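The 3 other read minimums gave 38 to 50 pseudogenes in place of 41. The 3 on-off pseudogenes were found under every alternative on-off rule and with any mouse left out. Over fits leaving out 1 mouse, the number called ranged from 1 to 3 between genotypes at ZT8, 1 to 3 at ZT20, 3 to 4 in the interaction, 1 to 6 between the times for wild-type animals, 3 to 7 between the times for Rev-erbα-/- animals and 0 to 3 for the averaged effect (3 without wild-type replicate 3 at ZT8). At an adjusted p of 0.01, 1 was called between genotypes at ZT20, 1 between the times for wild-type animals and 3 for Rev-erbα-/- animals. In wild-type between times, DESeq2 called 2 and the fit without a filter 2, and DESeq2 called 2 for the averaged effect. With the replicate number as a block, 3 were called between times in Rev-erbα-/- liver, and no other count moved by over 1.5 times. The numbers do not pair the mice: deviations of same-numbered mice had a mean correlation of -0.01, with none of 18 pairs above 0.1. The summed level without TMM was 797 CPM (wild-type, ZT8), 786 CPM (Rev-erbα-/-, ZT8), 868 CPM (wild-type, ZT20) and 823 CPM (Rev-erbα-/-, ZT20). With TMM but without the on-off pseudogenes it was 751, 746, 850 and 812 CPM in the same order. For the calls lost or gained beyond what fewer mice or a stricter threshold bring by construction, the cause was not tested. No called pseudogene or parent changed direction in any alternative. With 3 mice a group and 4 to 13 reads per mouse on Rps15a-ps6, small differences of the rarest pseudogenes were not detectable at this depth.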

Other observations

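The genes least similar to Rps13-ps1 and Rps15a-ps8 over the 12 mice, a list drawn up after the values had been seen, were Trim12a, Pik3c2a and Trim30d, all on chromosome 7. For Rps13-ps2 they were others: Whsc1l1, Echdc2 (chr4:108165437-108179308) and Snhg4, with Pearson correlations of -0.95, -0.92 and -0.92. None of these was off in any mouse. Trim12a (chr7:104299894-104315466) had 0, 28 and 53 reads in wild-type and 0, 0 and 0 reads in Rev-erbα-/- liver at ZT8, and 0, 0 and 0 reads and 112, 68 and 70 reads at ZT20. Pik3c2a (chr7:116337265-116443449), which lies close to Rps13, had 854, 763 and 941 reads and 629, 498 and 579 reads at ZT8, and 598, 569 and 577 reads and 1448, 1372 and 1233 reads at ZT20. Of 70 tested genes within 5 Mb of the interval from Rps13 to Rps15a, parents and pseudogenes left out, 12 (17.1%) passed the interaction in edgeR, against 5.88% of all tested genes. Among these 12 were Arntl, given above as a gene that REV-ERBα represses, and Pik3c2a. Trim12a and Trim30d lie outside this stretch. The corresponding share was 2.41% of 83 genes around Rps13-ps1, 11.1% of 27 around Rps13-ps2 and 3.23% of 31 around Rps15a-ps8. These shares are a description, since genes of one region are not independent.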
